A study of Rattus norvegicus with 90 samples.

Results

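The comparison set AR42J cells that received gastrin together with cycloheximide against AR42J cells that received gastrin alone, at 1, 2, 4 and 6 h. AR42J is an established rat line that grew from an acinar tumour of the pancreas. The arrays were chosen by their labels: 20 of the 90 arrays of the series were used, which carried either stimulus in batches 4 to 6 at these times. A further 2 gastrin arrays at 1 h, from a second title series without cycloheximide arrays at that time, were left out. Batches 4 and 5 were measured at 1, 2, 4 and 6 h and batch 6 at 4 h, and after repeat arrays of batch 6 were averaged there were 9 pairs, each of 1 sample with gastrin and cycloheximide and 1 with gastrin alone from the same batch and time. Untreated control cells and cells given cycloheximide without gastrin, from the same batches and times, supplied 9 samples each for a comparison of the cycloheximide effect with and without gastrin. The doses, and the order in which both agents were added, are not given in the sources used here.

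Cycloheximide blocks the elongation step of protein synthesis on cytoplasmic ribosomes. Transcripts that a stimulus raises through factors already present in the cell can therefore still rise in its presence, while a transcript that needs a newly made protein cannot. Short-lived mRNAs of immediate early genes are known to accumulate under the drug in many cell types, because their decay is linked to translation and because their own repressors are short-lived proteins. Gastrin is a peptide hormone of the stomach that acts through the CCK2 receptor, a receptor coupled to calcium release and MAP kinase signalling that AR42J cells carry. The study asked which transcriptional responses to gastrin occur without new protein.

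The promoters of 4 genes on which the results turn are shown because their response differed in direction: Egr1 and Dusp1 were among the largest rises with cycloheximide, and Chac1 and Trib3 among the largest falls. Each sequence runs from 250 bases before to 50 bases after the annotated start, 5′ to 3′ on the strand of the gene, and was taken from RefSeq on assembly GRCr8. In Egr1, at chr18:26736828-26737127 on the plus strand, capitals mark CArG boxes, the site of serum response factor, and the sequence TGACG, the core of the cAMP response element that CREB binds, here on the opposite strand. In Dusp1, at chr10:17184603-17184902 on the plus strand, capitals mark the complete cAMP response element TGACGTCA and a separate TGACG. In Chac1, at chr3:126795881-126796180 on the plus strand, and in Trib3, at chr3:161275484-161275783 on the minus strand, capitals mark the C/EBP-ATF element TGATGNAA, known as a site of ATF4, on the opposite strand.
Egr1: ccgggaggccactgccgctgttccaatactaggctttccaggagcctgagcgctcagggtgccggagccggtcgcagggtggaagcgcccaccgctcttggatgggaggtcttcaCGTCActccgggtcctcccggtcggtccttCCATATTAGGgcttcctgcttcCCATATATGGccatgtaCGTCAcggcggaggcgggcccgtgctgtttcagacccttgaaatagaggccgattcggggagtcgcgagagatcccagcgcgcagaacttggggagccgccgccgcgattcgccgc
Dusp1: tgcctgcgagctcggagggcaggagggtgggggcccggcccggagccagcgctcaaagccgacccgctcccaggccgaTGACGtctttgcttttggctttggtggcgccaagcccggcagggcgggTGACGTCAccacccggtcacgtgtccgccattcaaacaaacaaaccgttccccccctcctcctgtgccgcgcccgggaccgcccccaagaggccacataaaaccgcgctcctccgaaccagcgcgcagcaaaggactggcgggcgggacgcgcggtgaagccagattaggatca
Chac1: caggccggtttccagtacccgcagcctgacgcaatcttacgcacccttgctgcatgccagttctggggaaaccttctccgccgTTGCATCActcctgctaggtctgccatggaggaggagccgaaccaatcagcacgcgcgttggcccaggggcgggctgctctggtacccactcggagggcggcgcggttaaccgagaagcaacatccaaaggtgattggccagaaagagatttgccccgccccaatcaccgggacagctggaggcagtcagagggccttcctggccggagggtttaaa
Trib3: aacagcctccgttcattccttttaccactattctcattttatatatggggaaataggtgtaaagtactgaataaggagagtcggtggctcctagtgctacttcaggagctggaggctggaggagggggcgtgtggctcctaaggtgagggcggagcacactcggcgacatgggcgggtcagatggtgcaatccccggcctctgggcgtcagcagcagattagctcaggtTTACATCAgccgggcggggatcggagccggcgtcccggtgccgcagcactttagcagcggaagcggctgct
Counted from the start, the CArG boxes of Egr1 lay at -105 to -96 and -83 to -74, the complete element of Dusp1 at -124 to -117, and the C/EBP-ATF elements of Chac1 and Trib3 at -167 to -160 and -21 to -14. On either strand, the complete cAMP response element occurred in 1.91% of 27457 promoters of this length, TGACG, which the complete element contains, in 22%, the CArG box in 1.64% and TGATGNAA in 3.82%. The 12 largest rises and the 12 largest falls were taken among genes that changed alike in every pair. Of the 12 largest rises with 9 matched promoters, TGACG was in 5 (Ccnl1, Dusp1, Egr1, Junb and Rgs2), the complete element in Ccnl1 and Dusp1, the CArG box in Egr1, and TGATGNAA in Gadd45g. Of the 12 largest falls with 8 matched promoters, TGATGNAA was in 3 (Chac1, Prss1 and Trib3) and TGACG in 3 (Chac1, Dnajb9 and Trib3). A match describes the letters of this window and is not evidence of binding.

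Values are on the deposited log2 scale, and it is unknown whether a variance-stabilising step preceded it, so folds of dim genes are approximate. Differences carry the standard error (SE) that limma fitted, and n is the number of pairs, which come from 3 batches at repeated times. The labels do not say that a batch is a separate culture, so the spread behind each p-value may be technical. Each sample holds the RNA of a whole culture, so fewer cells of a type and less RNA per cell cannot be told apart. Genes expected of the line were bright: 19 of 32 acinar genes and 9 of 20 neuroendocrine genes lay above the 75th percentile of all probes, against 1 of 6 ductal markers, 0 of 8 fibroblast markers and 0 of 5 immune and endothelial markers. The mean of the fibroblast markers lay between 6.01 and 6.14 with gastrin and between 6.00 and 6.12 with gastrin and cycloheximide, near the median of all probes. The control arrays at 2 h stood apart along an axis of 200 probes that was defined on the controls of batches 4 and 5. On this axis the gastrin samples at 2 h scored 0.731 and 0.430 and the other gastrin samples between -0.121 and 0.369. With gastrin and cycloheximide the 2 h samples scored 0.724 and 1.16, and the 6 h samples 0.713 and 0.407. The 2 h samples thus scored highest in both groups of the comparison, though 0.724 and 0.713 lay close. The 2 h pair of batch 5 was uneven, with 0.430 for gastrin and 1.16 for both agents. With cycloheximide alone, batch 5 scored 0.178 at 2 h and batch 4 1.08 at 6 h, so in that group the axis did not single out 2 h.

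Averaged over the 4 times, the 12 largest rises with cycloheximide included the immediate early transcription factors Fos, Jun, Junb and Egr1, the signalling inhibitors Dusp1 and Rgs2, and the growth arrest gene Gadd45g. With limma and a Benjamini-Hochberg adjusted p under 0.05, 5463 of 22523 probes were called, which is 24.3% of all probes, 2573 of them higher (11.4%) and 2890 lower (12.8%). Large differences were mostly rises: 79 called probes were higher by over 1 and 22 lower by over 1. All 12 genes named as the largest rises were higher in 9 of 9 pairs, as the rule that chose them required. Nr1d1, with a rise of 1.96 ± 0.15 in 8 of 9 pairs, exceeded some of them and was left out by this rule.

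Fos, a subunit of the AP-1 transcription factor, had the largest rise. With gastrin alone Fos measured 8.0, 10.07, 6.51 and 8.55 at 1, 2, 4 and 6 h in batch 4, 7.92, 7.37, 6.51 and 6.80 at the same times in batch 5, and 9.05 in batch 6, which holds 4 h alone. With gastrin and cycloheximide the values in this order were 10.56, 13.06, 9.83 and 11.79 in batch 4, 9.87, 11.20, 10.76 and 10.87 in batch 5, and 10.99 in batch 6. Every treated sample lay above its own gastrin partner, and the groups overlapped through the 2 h gastrin sample of batch 4. Fos rose by 3.12 ± 0.26 (SE, n = 9 pairs), or 8.71-fold (limma adjusted p = 6.23e-09). Its AP-1 partner Jun ranged from 8.09 through a median of 9.0 to 10.43 with gastrin, and from 11.03 through 11.45 to 12.55 with both agents. The groups did not overlap, and Jun rose by 2.41 ± 0.15 with an adjusted p of 1.45e-10. Junb, a further AP-1 subunit, ranged from 7.35 through 8.44 to 11.28 with gastrin and from 9.76 through 10.98 to 13.64 with both, and rose by 2.10 ± 0.14. Egr1, a zinc finger factor whose promoter is shown above, ranged from 7.74 through 9.50 to 13.05 with gastrin and from 10.45 through 12.54 to 14.48 with both. The highest gastrin value of Egr1, again batch 4 at 2 h, exceeded most treated values, and the mean difference was 2.50 ± 0.26, a fold of 5.65 (limma adjusted p = 1.44e-07).

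Among the negative regulators, Txnip, which restrains glucose uptake and thioredoxin, ranged from 9.32 through 9.92 to 13.21 with gastrin and from 11.62 through 13.44 to 14.44 with both agents. The overlap came from the gastrin sample of batch 6, and Txnip rose by 2.77 ± 0.22, a fold of 6.80. Gadd45g, a growth arrest and stress gene, lay at 9.28 to 10.86 (median 9.66) with gastrin and at 11.87 to 14.21 (median 12.18) with both. These ranges did not overlap, and Gadd45g rose by 2.68 ± 0.14 (limma adjusted p = 1.95e-11). Dusp1, the phosphatase that inactivates MAP kinases, lay at 8.48 to 11.17 (median 8.72) with gastrin and at 10.61 to 13.34 (median 11.53) with both, and rose by 2.54 ± 0.18. Rgs2, which dampens signalling from Gq-coupled receptors such as the gastrin receptor, rose by 1.84 ± 0.21 from a median of 7.87 to 10.47.

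The most uniform of the 12 rises was in Ccnl1, cyclin L1 of the splicing machinery. Its pairs differed by 1.31 to 2.42, the groups did not overlap (9.21 to 10.83 against 11.01 to 12.29), and it rose by 1.85 ± 0.06 with the lowest adjusted p of the 12 (7.94e-15). Nuak2, a kinase of the AMPK family, also had groups that did not overlap, at 7.63 to 8.26 against 9.04 to 10.68, and rose by 1.75 ± 0.16. Evx1, a homeobox factor, rose by 1.93 ± 0.17, and the gene of C-type natriuretic peptide, Nppc, rose by 1.73 ± 0.23. Nppc was not called in a fit without the pairing of samples by batch and time.

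**Figure D1:**
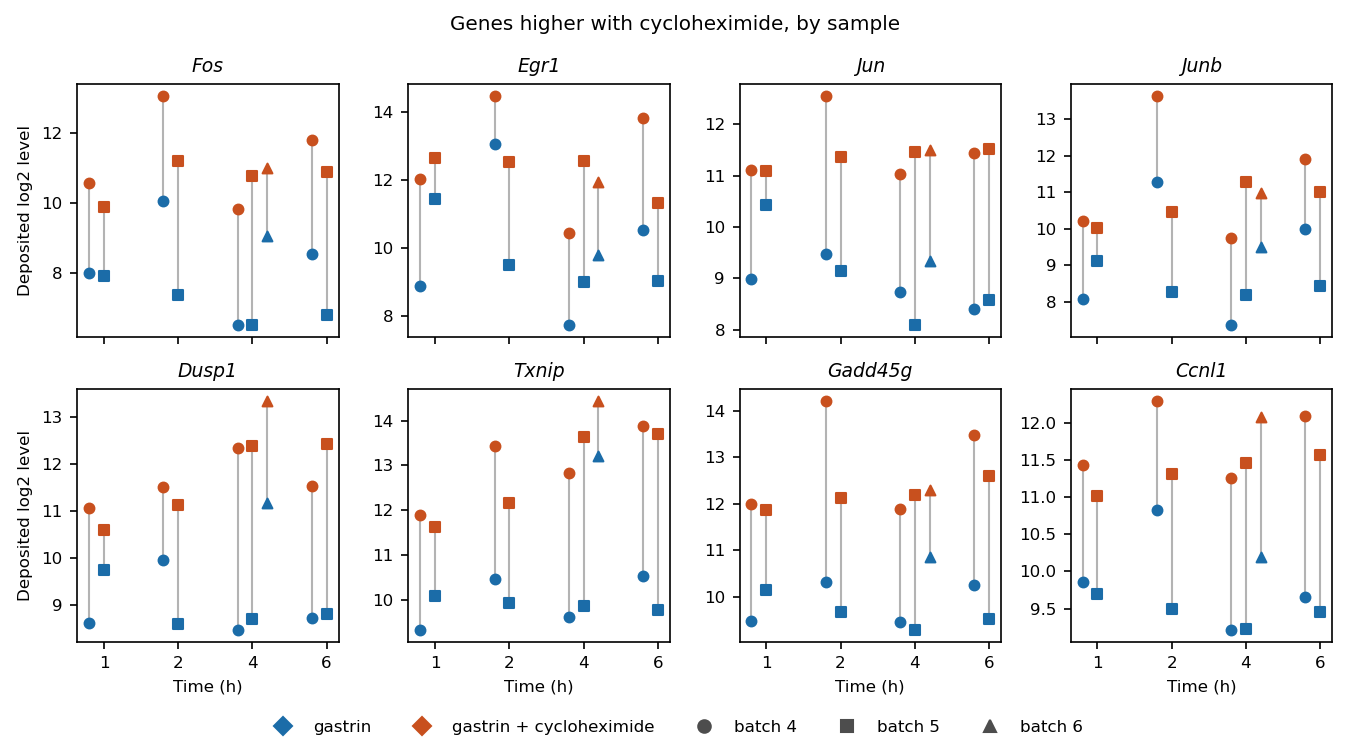
Level on the deposited log2 scale (vertical axis) of 8 genes among the largest rises, by hours after stimulation and batch; each line joins the gastrin sample to the gastrin and cycloheximide sample of the same batch and time. All lines climb for Fos, Jun, Gadd45g and Ccnl1, and the gastrin values of Fos and Egr1 are highest in batch 4 at 2 h.

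The 12 largest falls with cycloheximide included Trib3, Chac1 and Asns, which are targets of the amino acid response factor ATF4, the cochaperone Dnajb9, the trypsinogens Prss1 and Prss3 and the signalling protein Ihh. Trib3, a pseudokinase induced by ATF4 that restrains AKT signalling, measured 9.58, 9.42, 8.57 and 8.55 at 1, 2, 4 and 6 h with gastrin in batch 4, 8.17, 9.94, 7.54 and 7.50 in batch 5, and 8.65 in batch 6. With both agents all 9 values lay between 6.74 and 7.16. The groups did not overlap, the treated values hardly varied with time, and Trib3 fell by 1.75 ± 0.15 on the log2 scale, a fold of 3.36 (limma adjusted p = 1.33e-08). These treated values lay close to the array medians of 6.403 to 6.406. A floor of the signal may limit such falls, which was not tested. Chac1, an ATF4 target that degrades glutathione, declined with time under gastrin alone, from 9.02 and 8.10 at 1 h to 7.27 and 6.69 at 6 h. With both agents Chac1 lay between 6.37 and 6.68, near the array medians and below every gastrin sample. Its mean difference was -1.37 ± 0.12 (limma adjusted p = 1.94e-08). Asns, asparagine synthetase, moved the other way with time: it was 9.28 and 8.29 at 1 h and 9.86 and 9.70 at 6 h with gastrin, and 7.60 to 8.38 with both. The groups overlapped only through the 1 h gastrin sample of batch 5, and Asns fell by 1.35 ± 0.08. Eif4ebp1, which binds the cap-binding protein eIF4E and inhibits translation, lay at 10.89 to 12.26 with gastrin and 9.90 to 10.66 with both, without overlap, and fell by 1.21 ± 0.09.

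Dnajb9, a cochaperone of the endoplasmic reticulum, lay at 9.40 to 11.21 (median 10.02) with gastrin and at 7.84 to 9.61 (median 8.48) with both agents. Its pairs differed by -2.25 to -1.02, and it fell by 1.55 ± 0.11. Aimp1, a scaffold of the aminoacyl-tRNA synthetase complex, had groups that did not overlap, at 10.68 to 11.15 against 9.30 to 10.33, and fell by 1.09 ± 0.07. Slc16a1, a lactate and pyruvate transporter, fell by 1.07 ± 0.06, Fut1, a fucosyltransferase, by 1.21 ± 0.11, and Fhl3, a LIM domain protein, by 1.14 ± 0.12.

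The trypsinogen genes Prss1 and Prss3 encode digestive proenzymes of the acinar cell. Prss1 ranged from 10.29 through 10.74 to 14.14 with gastrin and from 8.77 through 9.60 to 11.72 with both agents, with both highest values in batch 6. Prss1 fell by 1.31 ± 0.11 and Prss3 by 1.19 ± 0.08, each in 9 of 9 pairs, and neither was called without the pairing by batch and time. Cross-hybridisation between trypsinogen probes was not tested.

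**Figure D2:**
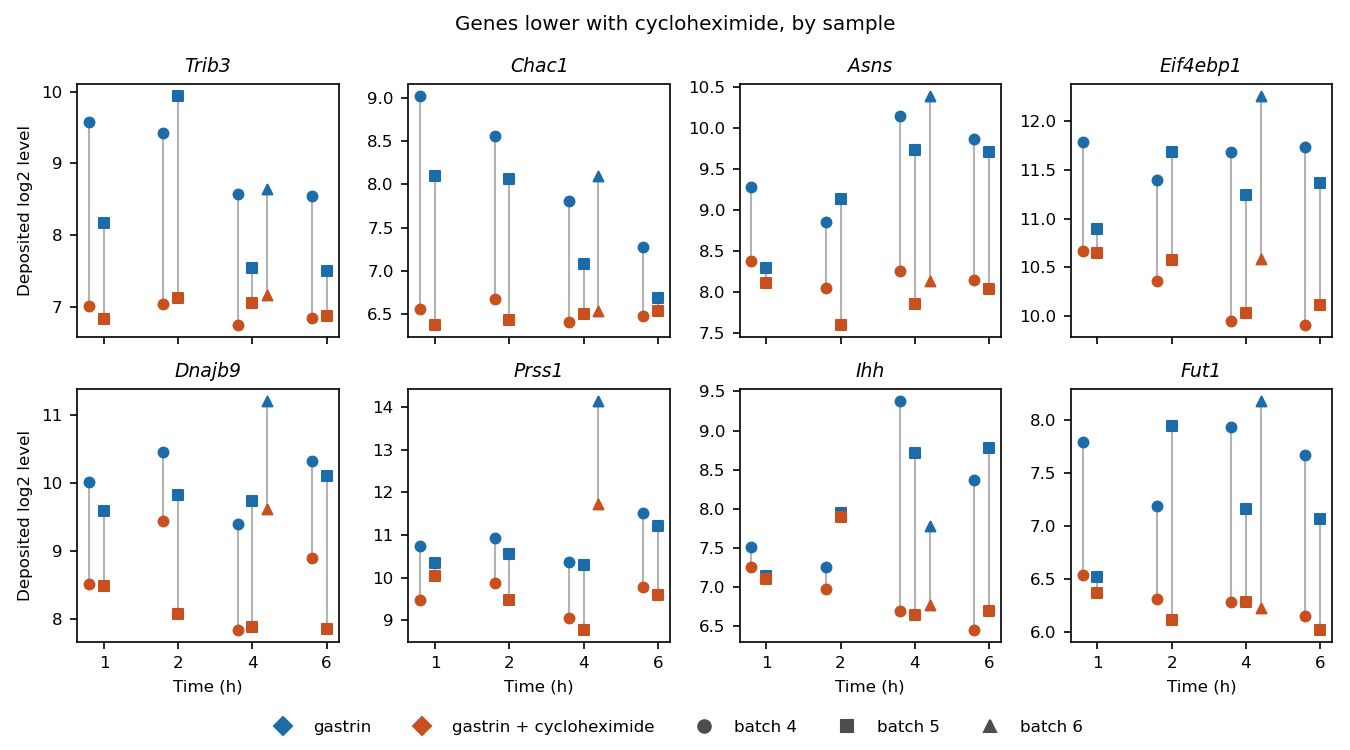
Level on the deposited log2 scale (vertical axis) of 8 genes among the largest falls, by hours after stimulation and batch; each line joins the gastrin sample to the gastrin and cycloheximide sample of the same batch and time. All lines descend; Trib3 and Chac1 end near one level at all times, and Ihh separates from its partner at 4 and 6 h.

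Of 26 measured immediate early factors, 18 rose and 1 fell over the 4 times, with a median difference of 0.78 against -0.01 over all probes. The shares of all probes, to be read beside every list, were 11.4% higher and 12.8% lower, and some counts below lie near them. Bright probes were called more often: of the 11261 probes above the median level, limma called 2508 higher and 2997 lower. Beyond those named above, Klf10, a zinc finger repressor, rose by 1.67, Myc by 1.58, Ier2 by 1.53 and Gem, a small GTPase, by 1.52. The fall was Rrad, a relative of Gem, with a difference of -0.72. Egr2, Egr3 and Nr4a1 differed by -0.09, -0.01 and 0.03 and were not called. Of 24 genes known as CREB targets, 17 rose and 0 fell, with a median of 0.94, among them Nfil3, a clock repressor, with 1.66 ± 0.14, Crem, which encodes the repressor ICER, with 1.43 ± 0.27, Per1 with 1.28 ± 0.18 and Cited2 with 1.24 ± 0.14. This list shares Fos, Jun, Gem, Nr4a1, Nr4a2 and Nr4a3 with the first and Dusp1 and Rgs2 with the feedback list.

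Of 27 feedback regulators of MAP kinase signalling and mRNA decay, 9 rose and 3 fell, with a median of 0.03. Sgk1, a kinase induced by growth factors, rose by 1.57 ± 0.23, Dusp10 by 1.03 ± 0.18 and the mRNA decay factor Zfp36 by 0.68. Spred1 and Spred2, inhibitors of Ras signalling, fell by 0.35 and 0.15, while Dusp2, Dusp4, Dusp5 and Pim1 differed by -0.02 to 0.03 and were not called. Of 23 targets of NF-kB, 7 rose and 3 fell, with a median of 0.05. Nfkbia, the inhibitor that NF-kB itself induces, rose by 1.47 ± 0.12 from a median of 10.54 to 11.80, in 9 of 9 pairs. The cytokine genes Il6, Tnf, Il1b, Ccl2 and Cxcl1 differed by -0.03 to 0.03 and were not called. Only 13 of the 23 genes lay above the median level of all probes. Uncalled genes may therefore be too dim to show a change, which was not tested. Without batch 4 or batch 5, 4 of these 23 rose. Of 16 short-lived repressors of transcription and growth, 12 rose and 1 fell (median 0.51), and beside Txnip and Cited2 these were led by Id1 with 0.83 ± 0.14 and Bhlhe40 with 0.78 ± 0.15. Without batch 5 Id1 differed by 0.46, and it was not called without the pairing by batch and time. Bhlhe40 differed by 0.32 without batch 4, by 1.18 without batch 5 and by 0.51 without the 2 h arrays.

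Transcripts that nonsense-mediated decay is known to destroy, and factors of that pathway, rose in 10 of 15 cases and fell in 0, with a median of 0.40. That decay depends on translation. Gadd45b rose by 1.42 ± 0.14, Gadd45a by 1.15 ± 0.14, Ptbp2, a splicing repressor, by 1.10 ± 0.09 and Eif4a2, a translation initiation helicase, by 0.97 ± 0.07. Ptbp2 had groups that did not overlap, at 8.43 to 8.88 with gastrin and 9.18 to 10.14 with both. Upf2 and Smg6, which are factors of the pathway, differed by 0.07 and -0.03 and were not called. The array does not separate spliced forms of these genes.

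Of 29 members of the ATF4 amino acid response, 13 fell and 3 rose, with a median of -0.09. Beside Trib3, Chac1 and Asns, Phgdh, the entry enzyme of serine synthesis, fell by 0.94 ± 0.08, Psph of the same path by 0.94, the transcription factor Atf5 by 0.81, Nupr1 by 0.77 and Shmt2 by 0.70. Phgdh did not overlap between groups, at 10.87 to 11.69 with gastrin and 9.83 to 10.57 with both. The 3 rises were Cebpb with 0.94, Atf3 with 0.75 and Atf4 itself with 0.25. Of 14 genes of tRNA charging, the synthetases and the tRNA exporter Xpot, 11 fell and 0 rose, with a median of -0.49. Cars1 fell by 0.83 ± 0.09, Gars1 by 0.77 ± 0.07, Sars1 by 0.66 ± 0.08 and Xpot by 0.61 ± 0.06, and Aars1, Vars1 and Hars1 were not called, with differences of -0.13 to -0.01.

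Of 24 genes of the unfolded protein response, which tunes folding capacity of the endoplasmic reticulum, 15 fell and 1 rose, with a median of -0.29. Edem1, a degradation factor whose groups did not overlap (7.12 to 7.58 against 6.32 to 6.97), fell by 0.64 ± 0.07, Pdia4, a disulfide isomerase, by 0.54 ± 0.08, and Sel1l by 0.52. The rise was Ppp1r15a, a phosphatase subunit that restores translation, with 0.89 ± 0.16. Hspa5, the main chaperone of this compartment, differed by -0.11 and Xbp1 by 0.06, and neither was called. Without batch 5 the count that fell was 9, and the cause was not tested.

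Of 18 genes of cholesterol and fatty acid synthesis, 10 fell and 2 rose, with a median of -0.21. Sqle, squalene epoxidase, fell by 0.56 ± 0.07, Hsd17b7 by 0.54 ± 0.06 and Cyp51 by 0.44 ± 0.09, and Stard4, a sterol carrier, rose by 0.40 ± 0.06. Of 16 NRF2 targets, 9 fell and 1 rose, with Idh1 at -0.63 ± 0.08, Txnrd1 at -0.55 ± 0.06 and Osgin1 at 0.98 ± 0.12. Without batch 5, 3 of the cholesterol genes and 6 of the NRF2 targets fell.

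Of 39 ribosomal protein genes, 10 fell and 0 rose, the median was -0.07, and the largest difference was -0.41 ± 0.08, in Rpl7. Of these genes 38 lay above the median level, where 2997 of 11261 probes were lower and 2508 higher. The 10 falls among 39 lie near that share of lower probes. Of 23 ribosome biogenesis genes, all above the median level, 7 fell and 4 rose. The falls were led by Utp4 with -0.57 ± 0.06 and the rises by Wdr75 with 0.33 ± 0.05. In 9 genes of polyamine metabolism, all above the median level, 3 rose and 3 fell. Sat1, which degrades polyamines, rose by 0.80 ± 0.09, while Sms, Srm and Odc1, which make them, fell by 0.73, 0.31 and 0.30. Of 17 heat shock genes, 5 fell and 0 rose, with Dnajb1 at -0.38 ± 0.08. Among 17 p53 targets, 4 rose and 2 fell, the latter Ccng1 with -0.75 ± 0.09 and Ei24 with -0.65 ± 0.07. Mdm2, the ligase that degrades p53, rose by 0.36 ± 0.08, and was not called without batch 4 or without batch 5. Without batch 4, 4 ribosomal protein genes, 1 biogenesis gene and 1 polyamine gene fell, and without batch 5, 6 ribosomal protein genes and 3 heat shock genes fell and 1 p53 target rose.

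Of 13 circadian clock genes, 7 rose and 1 fell, with Nr1d1, the repressor REV-ERBα, at 1.96 ± 0.15 and Cry1 at -0.29. Of 25 growth factor and invasion genes, 7 rose and 2 fell. Plat, tissue plasminogen activator, rose by 1.09 ± 0.12, Hbegf, an EGF receptor ligand, by 0.94 ± 0.10 and Ccn1 by 0.81 ± 0.11, while Vegfa fell by 0.44 and Col18a1 by 0.36. Without batch 5, 4 of the 25 rose.

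Of 32 acinar genes, 5 rose and 6 fell, against the 11.4% and 12.8% of all probes, and the counts were 2 and 1 without the pairing and 3 and 6 without batch 4. Among the 11261 probes above the median level, where 27 of these genes lie, 2508 were higher and 2997 lower. Ptf1a, the transcription factor that specifies acinar cells, lay at 12.69 to 13.43 with gastrin and at 13.69 to 14.46 with both agents. The groups did not overlap, and Ptf1a rose by 0.96 ± 0.07 (limma adjusted p = 6.52e-10), as did its partner Rbpjl, by 0.51. Cela3b, an elastase, fell by 0.97 ± 0.06, Ctrc, a chymotrypsin, by 0.61, and Prss2, Cela1, Cel and Pla2g1b differed by -0.05 to -0.03 and were not called. Of 20 neuroendocrine genes, 7 fell, led by Pcsk2, a prohormone convertase, with -0.55 ± 0.06, and 4 rose, or 2 and 0 without batch 5. One of the latter was Cckbr, the gastrin receptor itself, at 9.88 to 11.34 (median 10.80) with gastrin and 10.61 to 11.89 (median 11.12) with both. The Cckbr groups overlapped, the difference was 0.39 ± 0.12 with a limma adjusted p of 0.0162, and without batch 5 it was 0.24 with an adjusted p of 0.0823. Of 6 ductal markers, 4 fell by 0.12 to 0.35 with 0 called by limma without batch 5. Of 8 fibroblast markers 0 were called, and of 5 immune and endothelial markers Emcn rose by 0.25 from a level near the median probe.

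**Figure D3:**
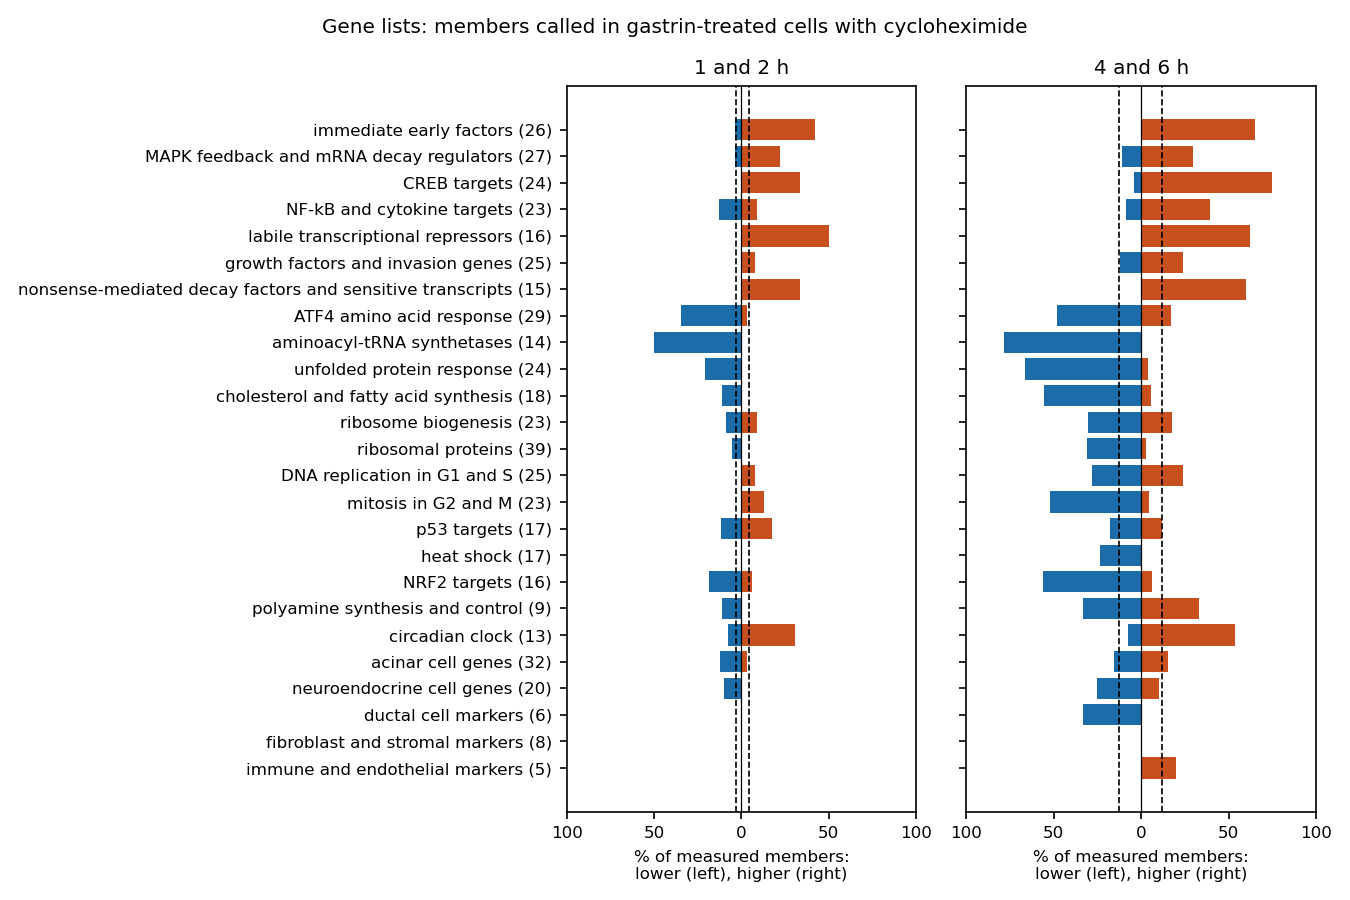
Percentage of measured members of 25 gene lists called lower (left) or higher (right) with cycloheximide in gastrin-treated cells (horizontal axis), at 1 and 2 h and at 4 and 6 h; dashed lines give the percentage of all probes called. At 4 and 6 h CREB targets and immediate early factors extend furthest to the higher side, and aminoacyl-tRNA synthetases and the unfolded protein response furthest to the lower side. The dashed lines include dim probes, which are called less often than bright ones.

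At 1 h 166 probes were called (0.737% of all), at 2 h 1405 (6.24%), at 4 h 3841 (17.1%) and at 6 h 3683 (16.4%). These counts are not directly comparable, since 4 h has 3 pairs and a median SE of 0.0805 against 0.0986 with 2 pairs at each other time. All 4 h arrays also have titles without an array number, while the 1, 2 and 6 h arrays used have numbered titles. What sets 4 h apart from the other times therefore cannot be told apart from the title series. With both title series of 1 h averaged, 1118 probes were called at 1 h, 144 of them among the 166. The added series holds gastrin and control arrays but none with cycloheximide, so that fit cannot separate the series from cycloheximide. With array weights the counts at 1 and 2 h were 448 and 348. Without batch 4 the count at 1 h was 0 (1426 at an unadjusted p under 0.05 in limma), and without batch 5 the counts at 1, 2, 4 and 6 h were 6, 95, 1794 and 1137. Over 1 and 2 h together 1662 probes were called, or 7.38%, 934 higher (4.15%) and 728 lower (3.23%), and over 4 and 6 h 5515, or 24.5%, 2646 higher (11.7%) and 2869 lower (12.7%). Of these, 657 were higher and 553 lower in both windows, and 44 were called in opposite directions. The early window holds 4 pairs and the late window 5, and the early count was 193 without the 2 h arrays, 463 without batch 4 and 359 without batch 5.

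Over 1 and 2 h Fos rose by 2.83 ± 0.38 (n = 4 pairs), Gadd45g by 2.65 ± 0.21, Txnip by 2.33 ± 0.33, Egr1 by 2.21 ± 0.38, Jun by 2.01 ± 0.22 and Junb by 1.91 ± 0.21 (largest limma adjusted p = 0.000692). The largest early falls were Trib3 with -2.28 ± 0.22, Chac1 with -1.92 ± 0.18, Dnajb9 with -1.35 ± 0.17, Rrad with -1.33 ± 0.30, Fut1 with -1.03 ± 0.17 and Acvr2b, an activin receptor, with -1.0 ± 0.20. The value of Rrad came mainly from 2 h, where gastrin samples were 10.07 and 8.40 and their partners 6.67 and 7.40. At 1 h alone its difference was -0.47 (limma adjusted p = 0.850). For Acvr2b and Fut1 the 1 h differences were -0.64 and -0.71 (limma adjusted p = 0.467 and 0.239). Txnip was called at 1 h, with 2.06 (limma adjusted p = 0.0407), but not in a fit without the 2 h arrays (limma adjusted p = 0.0583). Without batch 4 the early calls of Txnip, Egr1, Jun, Junb, Rrad and Fut1 were lost, and without batch 5 those of Egr1 and Acvr2b, while Rrad was -0.59 and -2.07 in these fits. In the early window 11 of 26 immediate early factors, 8 of 24 CREB targets and 8 of 16 labile repressors rose, and 10 of 29 ATF4 genes and 7 of 14 synthetases fell. The medians of these lists were 0.46, 0.39, 0.44, -0.15 and -0.37 beside -0.01 over all probes, of which 4.15% rose and 3.23% fell. The counts were 7, 3, 0, 3 and 0 without the 2 h arrays, 6, 2, 2, 5 and 2 without batch 4 and 11, 6, 6, 5 and 2 without batch 5.

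Over 4 and 6 h the largest rises were Fos with 3.41 ± 0.34 (n = 5 pairs), Dusp1 with 3.23 ± 0.25, Txnip with 3.19 ± 0.30, Nr1d1 with 2.93 ± 0.21, Jun with 2.80 ± 0.20 and Egr1 with 2.79 ± 0.35. The largest falls were Ihh with -1.96 ± 0.17, Chst1, a sulfotransferase, with -1.88 ± 0.20, Asns with -1.84 ± 0.10, Fbxo5 with -1.81 ± 0.12, Dnajb9 with -1.75 ± 0.15 and Ube2t, an enzyme of DNA crosslink repair, with -1.71 ± 0.15. Evx1 also had a late difference of 2.79, with an SE of 0.23. In this window 17 of 26 immediate early factors and 18 of 24 CREB targets rose (medians 0.79 and 1.40), and 14 of 29 ATF4 genes, 11 of 14 synthetases and 16 of 24 genes of the unfolded protein response fell (medians -0.11, -0.68 and -0.45), against -0.01 over all probes. Without batch 5 the last of these counts was 10, and Chst1 differed by -1.22. Over all probes 11.7% rose and 12.7% fell in this window.

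The test of the difference between windows called 1544 probes (6.86%), 794 with a higher effect at 4 and 6 h (3.53%) and 750 with a lower one (3.33%). In this test the 4 h arrays come from the title series without array numbers and all others from the numbered one. The largest difference was in Fbxo5, the inhibitor of the anaphase-promoting complex. Fbxo5 measured 9.39, 9.42, 9.10 and 8.86 with gastrin at 1 and 2 h and 10.20, 9.95, 9.74 and 9.50 with both agents. At 4 and 6 h it measured 9.45, 9.51, 9.65, 9.24 and 9.30 with gastrin and 7.96, 7.65, 7.86, 7.68 and 7.04 with both. Gastrin samples hardly varied, while treated samples lay above all of their time at 1 and 2 h, by 0.65 ± 0.13, and below all of them at 4 and 6 h. The effects differed by -2.46 ± 0.18 (limma adjusted p = 6.77e-08). Aurkb and Ube2c had no early effect that was called and fell late: Aurkb, a kinase of chromosome segregation, with 0.01 and -1.42, and Ube2c, a ubiquitin-conjugating enzyme of the same complex, with 0.10 and -1.33.

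Of 23 genes of mitosis, 3 rose and 0 fell at 1 and 2 h (median 0.12), 1 rose and 12 fell at 4 and 6 h (median -0.33), and for 12 the late effect was lower than the early one by the test of the difference. Aurka, a centrosome kinase, went from 0.67 to -0.39, Plk1 from 0.32 to -0.77 and Cdk1, the main mitotic kinase, from 0.04 to -1.04, and at 1 and 2 h only Aurka of these 3 was called. The early rises were Aurka, Bub1b and Tpx2, and 0 of the 23 rose early in limma without the 2 h arrays or without batch 4. Without batch 5, 7 of the 23 fell late, and the difference between windows was called for 7 of all probes in place of 1544; the cause was not tested.

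Ihh, the Indian hedgehog ligand, also separated late. With gastrin it measured 7.51, 7.14, 7.25 and 7.95 at 1 and 2 h and 9.38, 8.71, 7.78, 8.36 and 8.78 at 4 and 6 h. With both agents it measured 7.25, 7.10, 6.98 and 7.89 early and 6.69, 6.64, 6.77, 6.45 and 6.69 late. These late values lay near the array medians of 6.403 to 6.406, where a floor may limit the fall. The late groups did not overlap and the early ones did, and the effects differed by -1.80 ± 0.25 (limma adjusted p = 0.000104). Chst1 and Ube2t differed between windows by -1.93 ± 0.29 and -1.71 ± 0.23.

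Rises that came late were led by Tmem140, with 0.15 at 1 and 2 h and 2.28 at 4 and 6 h. Itga4, the integrin α4 subunit, measured 6.44 to 6.86 with gastrin and 6.39 to 7.39 with both agents early, and 6.58 to 7.90 against 8.47 to 9.72 late. The groups of Itga4 separated only late, and the effects differed by 2.00 ± 0.21 (limma adjusted p = 3.86e-06). Ldhb, a lactate dehydrogenase subunit, differed between windows by 1.94 ± 0.19, Nr1d1 by 1.94 ± 0.31, Crem by 1.86 ± 0.54 and Evx1 by 1.73 ± 0.34. Nr1d1 rose at 1 and 2 h by 0.99 ± 0.23, in 3 of 4 pairs, with 0.36 at 1 h alone (limma adjusted p = 0.852) and 1.62 at 2 h. For Crem and Evx1 the value without batch 5 was 1.07 and 0.92, with adjusted p of 0.430 and 0.120, and none of the 12 named differences between windows, the 6 largest each way, was called without that batch, Fbxo5 having -2.32 with an adjusted p of 0.0576.

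**Figure D4:**
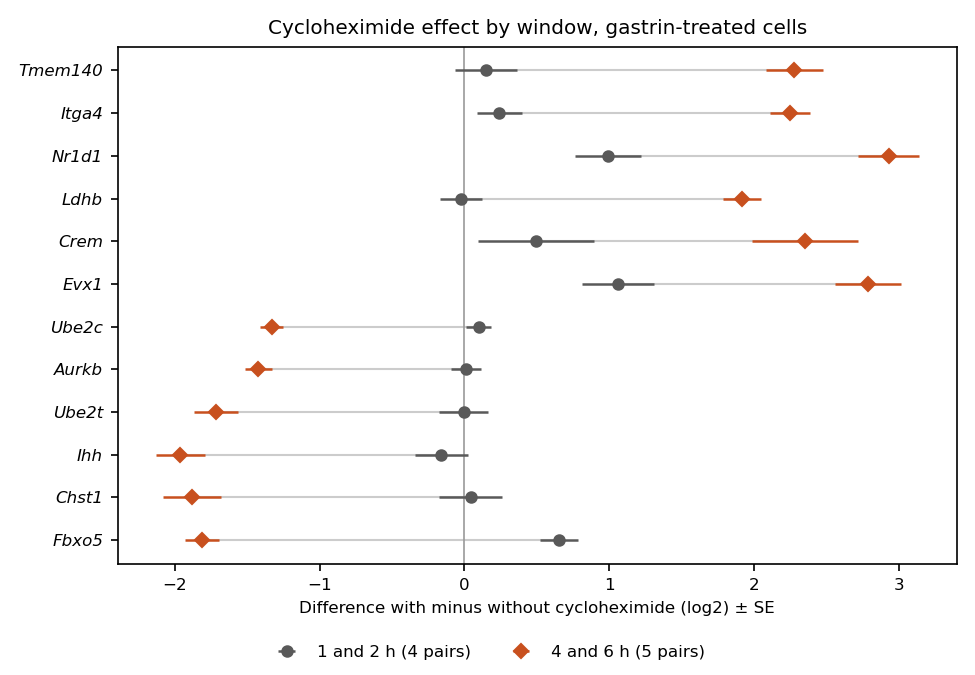
Fitted difference between gastrin with cycloheximide and gastrin alone on the log2 scale (horizontal axis) at 1 and 2 h and at 4 and 6 h, with standard errors as bars, for the named genes with the 6 highest and the 6 lowest differences between the windows. Fbxo5 changes sign, Nr1d1 and Evx1 are above 0 in both windows, and most of the others lie near 0 at 1 and 2 h.

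The effect of cycloheximide was compared with that in cells without gastrin by the difference of both effects, which share no sample. The gastrin difference with cycloheximide minus that without it is the same quantity. Gastrin differences given below are therefore not separate support. In cells without gastrin 5645 probes were called (25.1%). The difference between both effects was called for 34 probes (0.151%), 15 with a higher effect in gastrin-treated cells (0.0666%) and 19 with a lower one (0.0844%).

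For Fos the rise was larger with gastrin. In control cells Fos measured 6.27, 10.12, 6.10 and 8.22 at 1, 2, 4 and 6 h in batch 4, 6.46, 6.43, 6.21 and 6.20 in batch 5, and 7.0 in batch 6. With cycloheximide alone the values were 6.71, 12.27, 6.85 and 10.96 in batch 4, 7.14, 7.52, 7.30 and 7.70 in batch 5, and 7.66 in batch 6. Batch 4 at 2 and 6 h was high in both groups, and each treated sample was above its control. Cycloheximide alone raised Fos by 1.29 ± 0.26 and, in gastrin-treated cells, by 3.12 ± 0.26, a difference of 1.84 ± 0.36 with a limma adjusted p of 0.0399. Jun, Egr1 and Gadd45g, by contrast, had differences of -0.14 ± 0.21, 0.01 ± 0.36 and -0.29 ± 0.20 that were not called, with adjusted p of 0.818 or more.

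Trib3, Chac1, Ihh, Fut1 and Eif4ebp1 fell further in gastrin-treated cells. For Trib3 and Chac1, and late for Ihh, values with both agents lay near the array medians, where a floor may limit the fall. Trib3 in control cells ranged from 6.75 to 8.34 and with cycloheximide alone from 6.68 to 7.09, near the 6.74 to 7.16 with both agents. Gastrin without cycloheximide raised Trib3 by 1.21 ± 0.15, where 3.83% of all probes were called, and in the presence of cycloheximide the gastrin difference was 0.07 ± 0.15 (limma adjusted p = 0.925), where 2.12% were called. The cycloheximide effects with and without gastrin were -1.75 and -0.61, and their difference was -1.14 ± 0.21 with an adjusted p of 0.0379. Chac1 showed the same order, at 6.57 to 7.74 in control cells and 6.27 to 6.49 with cycloheximide alone, and effects of -1.37 and -0.46 that differed by -0.92 ± 0.17. Ihh lay at 6.5 to 7.79 in control cells and 6.63 to 7.28 with cycloheximide alone. The effect on Ihh without gastrin was -0.11 ± 0.12 and not called, and the difference of effects was -0.95 ± 0.18 (adjusted p = 0.0358). For Fut1 this difference was -0.83 ± 0.16 and for Eif4ebp1 -0.72 ± 0.12.

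Klhdc8a was called in opposite directions over the 4 times. With cycloheximide it rose by 0.53 ± 0.10 in cells without gastrin and fell by 0.35 ± 0.10 in gastrin-treated cells. The difference of effects was -0.88 ± 0.14. The fall was seen in 6 of 9 pairs and was called in neither window (limma adjusted p = 0.190 early and 0.0537 late). Gastrin alone raised Klhdc8a by 1.02 ± 0.10, and with cycloheximide the gastrin difference was 0.14 ± 0.10. In the other direction, Dyrk3, a kinase of stress granules, had effects of 0.67 with and -0.18 without gastrin (difference 0.85 ± 0.15), Rnd3 0.81 and 0.11 (0.70 ± 0.14), Slc1a3, a glutamate transporter, 0.72 and 0.13 (0.58 ± 0.10) and Rab19 0.55 and 0.02 (0.53 ± 0.10). None of the 4 effects without gastrin was called. For Cdt1, which licenses origins of replication, gastrin samples measured 8.08 and 8.20 at 1 h and 7.45 and 7.78 at 2 h, and samples with both agents 8.65 and 8.49 and then 8.54 and 9.02. Treated samples were above their partners at 1 and 2 h, and the difference of effects over all times was 0.50 ± 0.08, or 0.27 with an adjusted p of 0.313 without the 2 h arrays.

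Of the 29 ATF4 genes, 6 had a lower effect in gastrin-treated cells and 0 a higher one: Trib3, Chac1, Atf4 (-0.61), Asns (-0.60), Nupr1 (-0.49) and Slc3a2 (-0.40). Atf4 rose by 0.86 ± 0.08 with cycloheximide in cells without gastrin and by 0.25 in gastrin-treated cells, where gastrin alone had raised it by 0.61 ± 0.08. Of the 25 replication genes, 4 had a higher effect with gastrin and 0 a lower one, namely Cdt1, Orc1 (0.47), Uhrf1 (0.42) and Mcm7 (0.32). Outside these lists Cela3b fell by 0.97 with and 0.50 without gastrin, a difference of -0.47 ± 0.09, and for Cflar, an inhibitor of caspase-8, the difference of effects was -0.49. These calls changed with the samples and the block. Limma called 0 probes without the pairing by batch and time and 0 without the 2 h arrays of batch 5, with 756 and 1600 at an unadjusted p under 0.05. Without all 2 h arrays it called 20, of which 11 were among the 34, and of the 6 genes named each way Dyrk3, Slc1a3, Rab19 and Ihh were called. Without batch 4 it called 13, of which 0 were among the 34, and without batch 5 it called 2, of which 1 was.

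**Figure D5:**
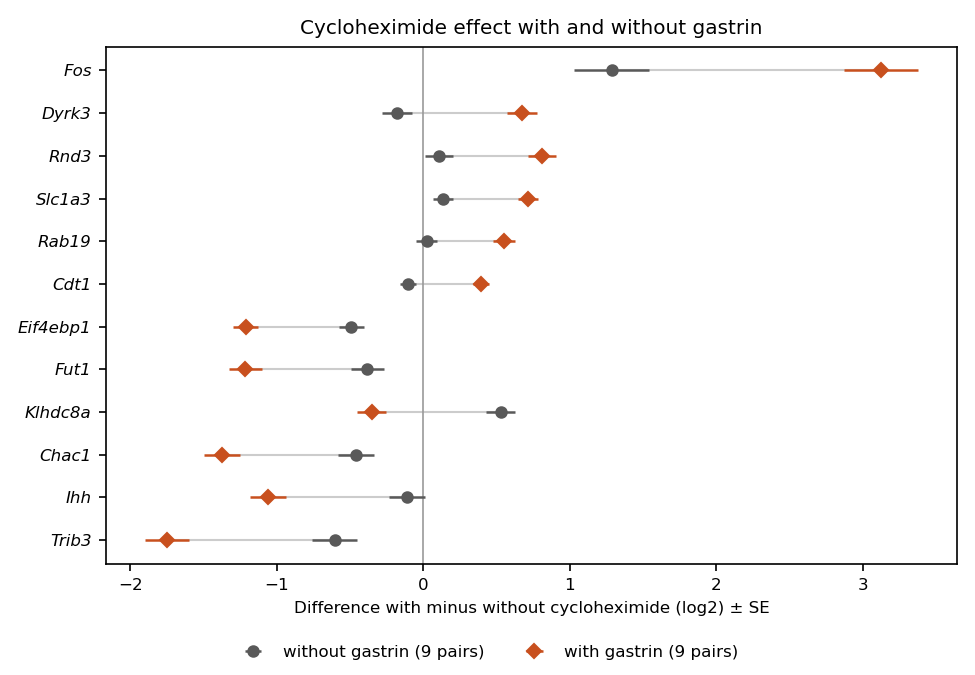
Fitted effect of cycloheximide on the log2 scale (horizontal axis) in cells without and with gastrin, with standard errors as bars, for the named genes with the 6 highest and the 6 lowest differences between both. Fos lies above 0 and Trib3, Chac1 and Eif4ebp1 below 0 in either case, further from 0 with gastrin, and Klhdc8a, Dyrk3 and Cdt1 lie on opposite sides of 0.

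Genes raised by gastrin in arrays that these comparisons do not use were followed as well. The 30 named genes with the largest gastrin difference in batches 2 and 3 at 1 and 2 h, all higher in 4 of 4 pairs, had gastrin differences of 1.22 to 3.38. In the cycloheximide comparison at 1 and 2 h, 14 of the 30 were higher with cycloheximide than with gastrin alone, 3 were lower and the median difference was 0.66. Over all probes 4.15% were higher and 3.23% lower in this window. Egr1, Nfil3, Fos and Junb, which led the list together with Nr4a3 and Chac1, rose by 2.21, 1.11, 2.83 and 1.91, while Nr4a3, an orphan nuclear receptor, differed by 0.08 and was not called. The 3 falls were Chac1, Trib3 and the gene annotated as 1810009J06Rikl, with -1.92, -2.28 and -0.62.

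The 30 genes chosen in the same way at 4 and 6 h were divided: 11 were higher and 11 lower with cycloheximide at 4 and 6 h, with a median of 0.03. Over all probes 11.7% were higher and 12.7% lower in this window. The rises included Egr1 with 2.79, Crem with 2.35, Nfil3 with 2.22, Nppc with 2.19, Nr4a3 with 1.73 and Cebpb, a basic leucine zipper factor, with 1.38. The falls included Asns with -1.84, Trib3 with -1.22, Atf5 with -1.08, Ctrc with -0.89, Arhgap18 with -0.88 and Clu, the secreted chaperone clusterin, with -0.66. Casp12, Kcnh1 and Mylk2 differed by 0.21, 0.08 and 0.00 and were not called. Both lists were read in different windows, and the difference between them was not tested.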

How the data were processed

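Total RNA of AR42J cells was measured on Illumina bead arrays. The values are log2 values as deposited by the authors, for 22523 probes on 90 arrays, and the submitters' processing notes name lumi 2.4.0 as the tool; background correction and the genome build are not given in the sources used here. All arrays have nearly the same median (6.403 to 6.406), the signal over background of a probe is unknown, and the number of arrays limits the precision. The gastrin arrays would also serve any comparison of gastrin with control, and the gastrin differences given beside the cycloheximide effects share them.

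Stimulus, batch and time came from the labels. At 1 h the title series that holds all 4 stimuli was used, and the repeat arrays of batch 6, whose deviations correlated at 0.953, were averaged. Between both title series, deviations of the 1 h gastrin arrays correlated at 0.357 in batch 4 and 0.427 in batch 5. The 2 arrays whose title and stimulus label disagree were not used. limma 3.58.1 in R 4.3.3 (lmFit and eBayes, adjusted over all 22523 probes, threshold 0.05) was fitted to 36 samples with a coefficient for each stimulus and time and 9 blocks of batch and time. The labels name the batch, and deviations of gastrin samples and their partners from their group means correlated at 0.363 to 0.792 within batches. Contrasts averaged the 4 times, 1 and 2 h, or 4 and 6 h with equal weight for each time. The script was tested on simulated data.

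One symbol was given by the platform annotation for 13793 probes, and the brightest probe stands for a gene. Named genes were the 12 largest changes each way over 4 times, the 6 largest each way in the other comparisons and up to 4 members of each list, all past the threshold and, in the first 3 comparisons, alike in every pair; further list members and uncalled genes were chosen after their values were seen. The 25 lists, the members of the comparison and the tests were chosen with earlier results of these data known. Alternatives changed the block, the samples, array weights, an array score, centring, the probe filter, the variance model, the repeat arrays, the 1 h series and the probe of a gene.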

Additional observations from a re-analysis of the deposited data

Results flagged for a closer look

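Among the named genes, the size of the cycloheximide effect differed between 1 and 2 h and 4 and 6 h, by the test of the difference in limma. Values are the late effect minus the early one on the log2 scale. It was higher late in Tmem140 (2.13), Itga4 (2.00), Nr1d1 (1.94), Ldhb (1.94), Crem (1.86), Evx1 (1.73), Sgk1 (1.68), Per1 (1.65), Slc1a3 (1.47), Dusp1 (1.38), Gadd45b (1.24), Plat (1.19), Nfil3 (1.11), Nfkbia (0.92), Nfkbiz (0.91), Sat1 (0.80), Hbegf (0.78), Rnd3 (0.73), Rab19 (0.71), Birc2 (0.65), Ptf1a (0.63), Mcm6 (0.63), Ptbp2 (0.63), Ccnl1 (0.62), Emcn (0.49), Eif4a2 (0.47) and Nob1 (0.42). It was less negative late in Chac1 (1.09) and Trib3 (1.06), both of which fell most at 1 and 2 h. With both agents these genes lay near the array medians at all times, where a floor may limit the fall. Genes of the cell cycle and its checkpoints had a lower late effect: Fbxo5 (-2.46), Ube2t (-1.71), Aurkb (-1.43), Ube2c (-1.43), Cdk1 (-1.08), Cks2 (-1.06), Cdt1 (-0.81) and Ccng1 (-0.61). So did genes of amino acid supply and translation, with Asns (-0.99), Eif4ebp1 (-0.66), Phgdh (-0.58), Gars1 (-0.56) and Xpot (-0.46), and folding and heat shock genes, with Dnajb1 (-1.18), Pdia4 (-0.92), Edem1 (-0.53) and Hspb1 (-0.29). Among metabolic and other enzymes and factors the values were Idh1 (-1.08), Sqle (-1.02), Slc16a1 (-0.83), Sms (-0.50), Ei24 (-0.49), Utp4 (-0.44) and Txnrd1 (-0.44), and among secreted proteases and a convertase Cela3b (-0.95), Prss1 (-0.79), Prss3 (-0.73) and Pcsk2 (-0.48). The remaining lower effects were in Chst1 (-1.93), Ihh (-1.80) and Fhl3 (-0.88). Without batch 5, where the fit had 3 residual degrees of freedom, the 6 largest each way lost their call and kept their sign.

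The cycloheximide effect in gastrin-treated cells also differed from that in cells without gastrin for 14 named genes, again by the test of the difference in limma. It was higher with gastrin in Fos (1.84), Dyrk3 (0.85), Rnd3 (0.70), Slc1a3 (0.58), Rab19 (0.53) and Cdt1 (0.50), and lower in Trib3 (-1.14), Ihh (-0.95), Chac1 (-0.92), Klhdc8a (-0.88), Fut1 (-0.83), Eif4ebp1 (-0.72), Asns (-0.60) and Cela3b (-0.47). None of the 14 was called without the 2 h arrays of batch 5 or without batch 4, where limma called 0 and 13 probes (1600 and 2614 at an unadjusted p under 0.05), and the cause was not tested.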

How the results depend on the processing

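Fits without the replicate block, that is without pairing by batch and time, called 2795 probes over all times, 283 at 1 and 2 h, 3012 at 4 and 6 h, 188 for the difference between windows and 0 for the difference between the effects with and without gastrin (756 at an unadjusted p under 0.05 in limma). With batch as an additive block the early, window and gastrin counts were 1012, 922 and 0 (1334 unadjusted). Without the 2 h arrays of batch 5 the early and gastrin counts were 990 and 0 (1600 unadjusted), and without all 2 h arrays the early, window and gastrin counts were 193, 754 and 20. Array weights gave 20 calls for the gastrin difference, the array score 18, and the trended and robust variance model 19. Leaving out 1 batch at a time gave 3045 to 5219 calls over all times, 359 to 1612 early, 3003 to 5018 late, 7 to 1453 between windows and 2 to 29 for the gastrin difference. Each lowest count came without batch 5, and fits without batch 4 or 5 had 3 residual degrees of freedom against 15. Of 146 results for 112 named genes, 0 changed sign in 16 alternatives. The largest changes over all times, early and late were chosen to have 1 sign in every pair. Some alternatives, such as the fit without the block, also leave the estimate itself unchanged. For such results the kept sign was fixed in advance and is not evidence of stability. Calls were lost for 45 without the block, 32 without batch 4 and 43 without batch 5. They were lost for 18 without the 2 h arrays and at most 18 under any other alternative. Without the block the early calls of Fos, Egr1, Junb, Txnip, Dnajb9 and Acvr2b and the call of Id1 were lost, and the repressors that rose numbered 5 and the unfolded protein response genes that fell 5. With both title series at 1 h, Rpl30 differed by -0.73 and Rps12 by -0.17. The added series holds no cycloheximide arrays, so the series and cycloheximide cannot be told apart in that fit. Dusp10 differed by 0.61 with the array score. The cause was not tested.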

Other observations

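Some list members were called in opposite directions in the early and late windows. Ddit3, the stress factor CHOP, differed by -0.68 at 1 and 2 h and by 0.77 at 4 and 6 h, and the windows differed by 1.45 in the limma test. Sesn1, a p53 target that restrains mTOR signalling, went from 0.38 to -0.47, a difference of -0.85. Others of the stress and energy lists were called late alone: Atf3 went from -0.11 to 1.62 and Ppargc1a, a coactivator of mitochondrial genes, from -0.28 to 1.42, with differences of 1.72 and 1.70 that were called. Herpud1, a degradation factor of the endoplasmic reticulum, ran against most of its list, since it fell by 0.93 early and differed by -0.13 late. These genes were chosen after their values were seen, and each early value rests on 4 pairs.

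Among acinar genes, the lectins Reg3b and Reg3a rose by 0.93 and 0.75 over all times and were called in neither window. Among replication genes, Fen1, a flap endonuclease, differed by 0.18 early and -0.89 late, and Cdc6 rose by 0.63 early and differed by -0.14 late. Both differences between windows were called, with -1.07 and -0.77. The replication list as a whole had 6 of 25 members higher and 4 lower over all times, or 3 and 6 without batch 4, with a rise of 0.39 in Pola1, a polymerase subunit (0.24 without batch 4), and a fall of 0.86 in Ccne2, cyclin E2.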
